A study of Mus musculus with 50 samples.

Results

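The genes described here encode proteins of the cornified envelope and lie in the epidermal differentiation complex, a gene cluster on mouse chromosome 3. They were chosen by name, as every gene of the digit tables whose symbol begins with Lce or Sprr, together with Lor, Flg, Flg2, Hrnr, Rptn, Tchh, Crnn and Ivl. The rule gave 44 of the 21954 genes in the tables, namely 14 Lce1, 6 Lce3 and 11 Sprr2 genes, Sprr1a and Sprr1b, Lce6a, Sprr3, Sprr4, 6 fused S100 genes (Crnn, Flg, Flg2, Hrnr, Rptn and Tchh), Lor and Ivl. All 44 lie within 1369 kb at chr3:92080271-93449077 of GRCm38, with the Sprr2 genes in 218 kb, the Lce1 genes in 373 kb and the Lce3 genes in 68 kb. RNA of the wound bed was sequenced from hindlimb digits of male C57Bl/6 mice of 9 to 10 weeks, taken after amputation through the distal phalanx (P3). The 29 non-regenerative digits (NR, labelled levels of 60% to 80% of P3 removed) span the hours 0, 3, 6, 12 and 24 and the days 3, 7, 14 and 21, with 5 digits at 7 days and 3 at every other time. The 12 intermediate digits (labelled Medium, 41% to 55%) span the hours 0 and 24 and the days 14 and 21, with 3 digits each. The study's methods set the non-regenerative level above 67%, and 11 of the 29 digits labelled NR lie below that limit. All mice had bilateral surgery and healed without sutures, and the labels do not say which digits came from the same mouse, so p-values measure the spread between digits.

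Keratinocytes that reach the outer layers of the epidermis build the cornified envelope beneath their plasma membrane. Transglutaminases cross-link involucrin (Ivl), loricrin (Lor), the small proline-rich proteins (Sprr) and the late cornified envelope proteins (Lce) into an insoluble shell, while the fused S100 proteins, of which profilaggrin (Flg) is the best known, bundle keratin filaments and fill the cell. In intact skin Lor, Flg and the Lce1 genes are known as markers of normal terminal differentiation, whereas Sprr1, Sprr2 and Lce3 genes are known to be induced where the epidermis is wounded or its barrier is broken. The skin around the distal phalanx also carries the nail, whose matrix makes hard keratins and whose surrounding epithelium can express trichohyalin (Tchh).

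Reads may be split among family members, and the sequences show where. Of all stretches of 65 bases, the read length, in the longest transcript of each member annotated as protein-coding (or the longest, where none is), the share found in another member with at most 2 mismatches was 11.2% to 63.1% in 13 Lce1 genes (0% in Lce1m), 41.8% to 73.8% in the Lce3 genes and 90.8% to 100% in Sprr2a1, Sprr2a2 and Sprr2a3. It was 0% to 28% in the other 8 Sprr2 genes and 0% in Sprr1a, Sprr1b, Lor, Ivl and each fused S100 gene. The glycine- and serine-rich stretch below is shown because a read from it cannot be assigned within the Lce1 family. It lies on the minus strand in Lce1e (chr3:92707662-92707726), Lce1a2 (chr3:92668829-92668893) and Lce1h (chr3:92763473-92763537), and is identical to Lce1e in Lce1a1, Lce1c, Lce1f and Lce1j. Capitals mark the bases that differ from Lce1e.
Lce1e: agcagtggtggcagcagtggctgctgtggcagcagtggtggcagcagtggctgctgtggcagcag
Lce1a2: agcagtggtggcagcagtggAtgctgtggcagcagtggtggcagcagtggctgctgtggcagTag
Lce1h: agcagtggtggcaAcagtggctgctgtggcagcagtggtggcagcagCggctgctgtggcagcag

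The next stretch is shown in the same way for the Sprr2 family. It lies on the plus strand in Sprr2a1 (chr3:92219104-92219168), Sprr2a2 (chr3:92253917-92253981), Sprr2a3 (chr3:92288600-92288664) and Sprr2b (chr3:92317461-92317525), and capitals mark the bases that differ from Sprr2a1. The values of Sprr2a1, Sprr2a2 and Sprr2a3 below are therefore also given as a sum, and the annotated spans of Sprr2a1 and Sprr2a2 overlap on the same strand.
Sprr2a1: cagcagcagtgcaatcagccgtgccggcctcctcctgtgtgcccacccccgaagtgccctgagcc
Sprr2a2: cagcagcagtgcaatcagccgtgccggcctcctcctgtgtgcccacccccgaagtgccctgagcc
Sprr2a3: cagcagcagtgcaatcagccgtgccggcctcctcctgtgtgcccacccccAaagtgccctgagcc
Sprr2b: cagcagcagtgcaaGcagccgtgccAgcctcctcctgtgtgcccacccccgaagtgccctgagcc

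Levels are given as normalized TPM, transcript abundance per length rescaled between libraries by the study's authors, and tests were run on expected counts, of which the digits held 1468749 to 13011782. A member was called where the adjusted p was under 0.05 and the mean normalized counts of the groups were more than 2-fold apart. Every digit expressed suprabasal keratins (Krt1, Krt2, Krt10 and Krt77 summed to 16702 to 69308 TPM), so epidermis was present throughout. Digits are numbered in the order of their accessions. The third NR digit at 3 hours had the fewest counts and 25 members above 0, the second NR digit at 7 days had short transcripts depleted against long ones (log2 difference of -1.65), and the second NR digit at 14 days had them enriched (2.93), with 56768 TPM of summed Lce1. The normalized TPM of all genes summed to 3362791 in this digit of 14 days, beside 836756 and 939809 in the other NR digits of that time. Its TPM are therefore not comparable with theirs. By the dates in their labels, 24 digits belong to an earlier and 17 to a later period. All NR digits of 3 hours and of 12 hours are earlier, as is every intermediate digit of 21 days, whereas every NR digit of 21 days is later, so there the period and the time cannot be told apart. In bulk tissue, fewer cells of a type and less RNA per cell cannot be told apart.

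At 0 hours the most abundant members of the NR digits were Flg (median 6079 TPM, range 1126 to 7773), Hrnr, which encodes hornerin (1089, 724 to 1252), Lce1a1 (763, 399 to 783), Sprr1b (552, 276 to 685) and Rptn, which encodes repetin (411, 101 to 523). Flg stood above Hrnr by its median, but its lowest digit fell inside the range of Hrnr, and the ranges of Lce1a1, Sprr1b and Rptn overlapped. All but Lce1k of the Lce1 genes followed between 112 and 392 TPM, and Lor had a median of 180. The Lce3 and Sprr2 genes lay at the other end of this order. Lce3c (44.4) and Sprr2h (20.3) had the highest medians of their families, and Lce3b, Sprr2a1, Sprr2a3, Sprr2f and Sprr3 had no count in any of the 3 digits, which allows up to 3 counts in each library. At 12 hours Sprr1b (1240), Sprr1a (949) and Hrnr (866) followed Flg (1436), and Lce3e (462), Lce3c (427), Lce3d (385) and Sprr2h (352) were among the Lce1 genes in the order of medians.

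**Figure D1:**
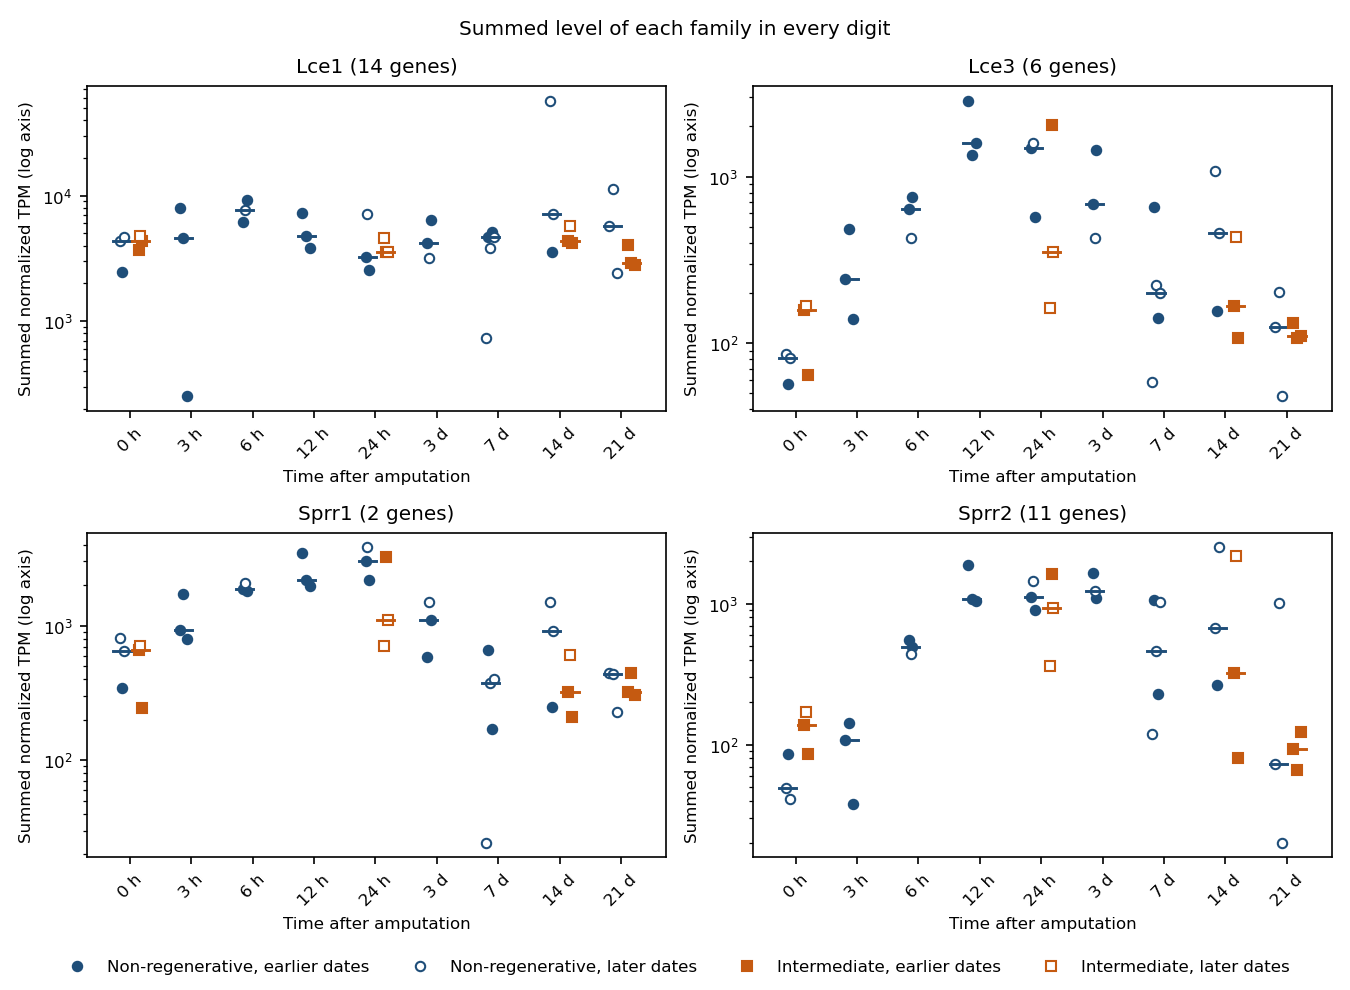
Summed normalized TPM (log axis) of the Lce1, Lce3, Sprr1 and Sprr2 families in every digit against time after amputation, in non-regenerative (circles) and intermediate (squares) digits of the earlier (filled) and later (open) dates, with bars at the group medians. Lce3, Sprr1 and Sprr2 were higher in every NR digit at 6, 12 and 24 hours than in any at 0 hours, while Lce1 at 12 and 24 hours overlapped with 0 hours.

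The comparison of each time with 0 hours asks when the envelope genes respond to amputation in digits labelled non-regenerative. No regrowth outcome is given for single digits. Those of 12 hours were at 64%, 64% and 67%, and those of 0 hours at 62%, 62% and 75%. None at 12 hours thus exceeded the 67% of the study's methods. Calls began at 6 hours, with genes of Lce3, Sprr1 and Sprr2 together with Lce6a and Lce1j, and every member called at 12 and 24 hours and at 3 days was of Lce3, Sprr1 or Sprr2. The size of the change was not tested between families. At 3 hours each digit already lay above those of 0 hours for the Lce3 sum and for Sprr1a, without a call. In the third digit the Lce3 sum was Lce3e alone. With edgeR's quasi-likelihood test and Benjamini-Hochberg adjustment, 13 of 37 members tested rose at 6 hours (4.85% of all genes tested were called, 3.23% higher), 18 of 41 at 12 hours (11.4%, 6.76% higher), 17 of 40 at 24 hours (10.7%, 5.57% higher) and 9 of 40 at 3 days (0.723%, 0.557% higher). No member fell at these times, and DESeq2 called 1 lower, Flg at 12 hours. A member with few or no counts at 0 hours could enter the test only through its later counts, so these shares are not shares of all 44. At 3 hours 0 of 32 members were called (0% of all genes; 4 members at an unadjusted p under 0.05, 2 called by DESeq2). At 7 days 0 of 36 were called (0.0537%; 3 and 2), at 14 days 0 of 34 (0%; 14 and 4), and at 21 days 0 of 34 (0.452%; 4 and 0). Unless stated, here and below, no share of all genes is given for counts by DESeq2 or at an unadjusted p. Those counts describe the setting and not the members.

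All comparisons share the same 3 digits of 0 hours, of which the first is of the earlier period and the others are of the later one. A single fit over all 41 digits left 0 calls at 6 hours, 12 at 12 hours, 9 at 24 hours and 2 at 3 days (shares of all genes not given). Without the third digit of 0 hours, 7 of 38 members were called at 6 hours (0.826% of all genes in that fit). With the exact date in the labels as a block, which sets the digits of 12 hours against the 1 digit of 0 hours that shares their date, 17 of 41 members were called at 12 hours (7.1% of all genes), and Sprr2k was lost. A single test of any change over the 9 times in the 29 NR digits called 14 of 42 members (7.62% of all genes): Lce3b, Lce3c, Lce3d and Lce3e, Sprr1a and Sprr1b, and Sprr2a1, Sprr2a2, Sprr2d, Sprr2e, Sprr2f, Sprr2h, Sprr2i and Sprr2j-ps. With the date period as a term the number was again 14, beside 961 of 14434 genes. Without the 3 libraries that stand apart it was 18, beside 3339 of 14906 genes, so the calls rose over all genes as well.

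**Figure D2:**
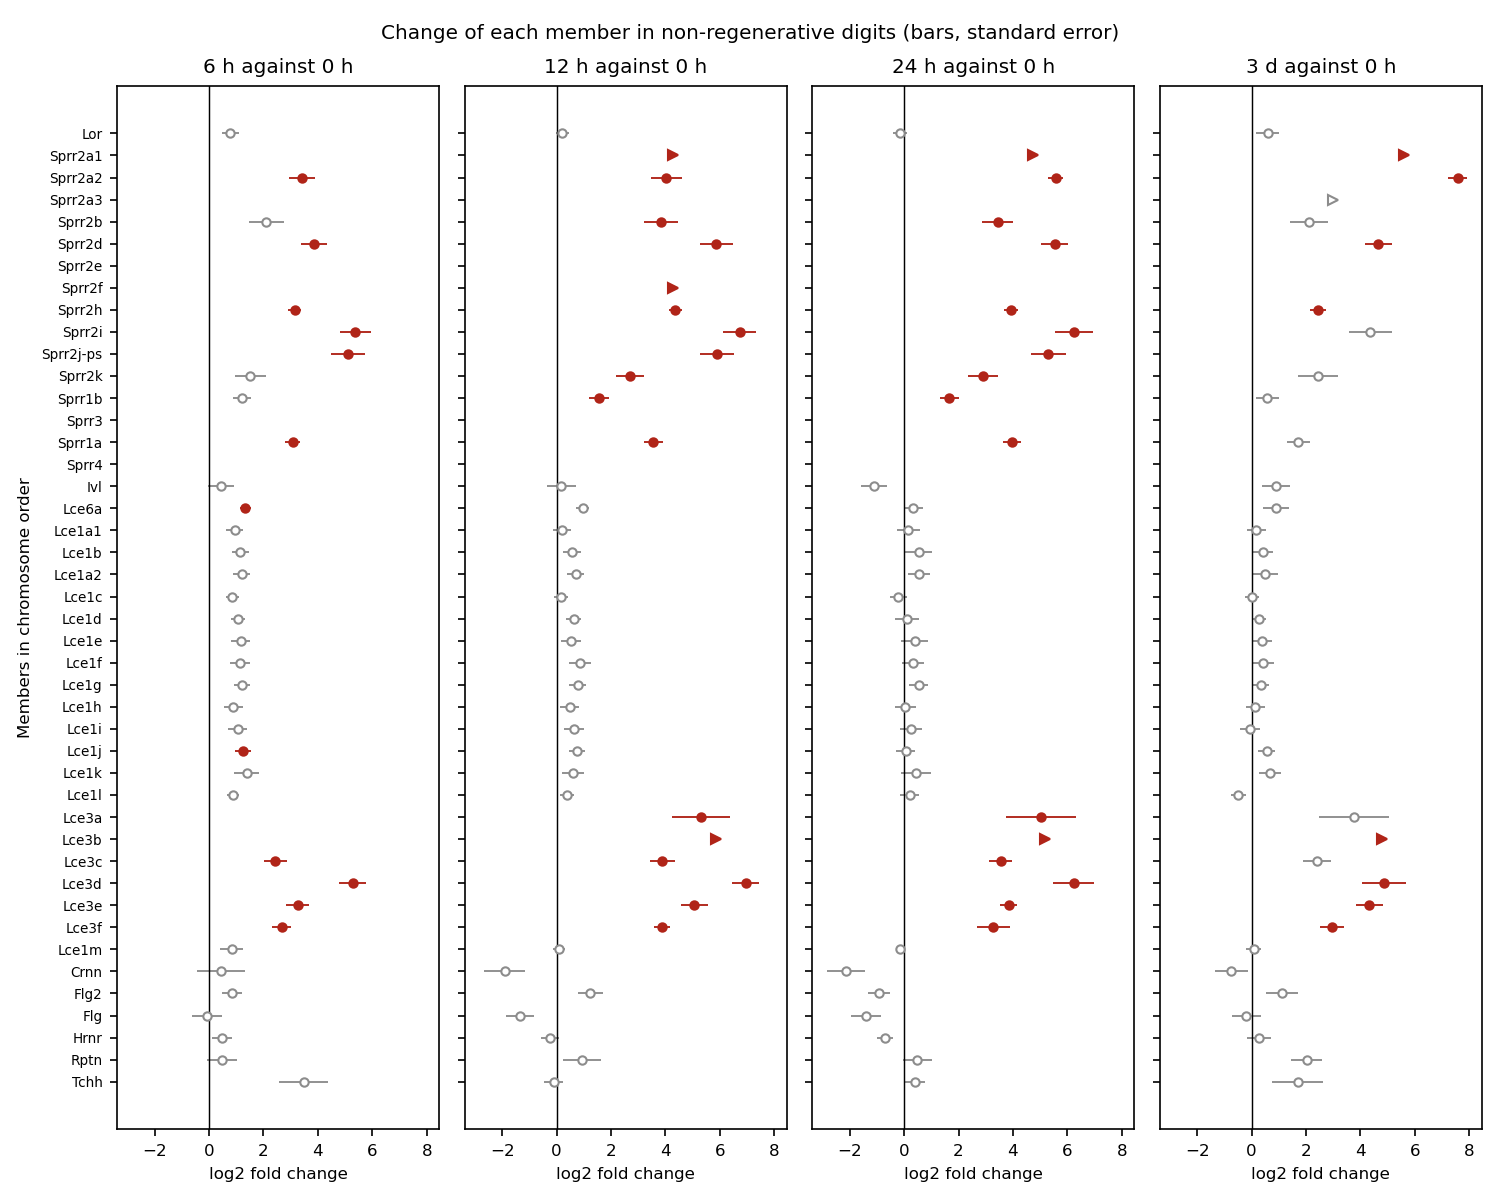
Log2 fold change against 0 hours of each member in chromosome order at 6, 12 and 24 hours and 3 days in NR digits, with bars for the standard error, filled red symbols for called members and open grey symbols for the rest. Triangles are lower bounds for members without counts at 0 hours, and members not tested, at or under the bound's floor, or with 1 count in all at 0 hours (Sprr2e) have no symbol. The called members form blocks at Sprr2, Sprr1 and Lce3, and the Lce1 block between them has a median of 0.59 at 12 hours and 0.23 at 24 hours.

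The Lce3 genes, whose proteins are laid into the envelope of stressed and healing epidermis, went from the lower end of the order to the level of single Lce1 genes. Summed over the family, the digits held 56.7, 86.2 and 81.1 TPM at 0 hours, 242, 485 and 140 at 3 hours, 636, 749 and 425 at 6 hours, 2848, 1354 and 1593 at 12 hours, 1488, 1584 and 574 at 24 hours and 682, 428 and 1451 at 3 days. Every digit from 3 hours to 3 days lay above every digit of 0 hours. The summed counts rose by 3.02 ± 0.28 (log2, SE) at 6 hours (adjusted p = 0.00247), 4.70 ± 0.37 at 12 hours (adjusted p = 0.000525), 4.01 ± 0.40 at 24 hours (adjusted p = 0.000858) and 3.50 ± 0.45 at 3 days (adjusted p = 0.0133). At 3 hours the difference of 2.0 ± 0.43 was not called (adjusted p = 0.244).

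Lce3d showed the family's course in single digits, with 8.51, 3.21 and 1.6 TPM at 0 hours, 143, 183 and 127 at 6 hours, 666, 364 and 385 at 12 hours, 386, 401 and 79.1 at 24 hours and 50.6, 58.6 and 249 at 3 days. It rose by 6.95 ± 0.50 at 12 hours (adjusted p = 0.00033) and by 4.88 ± 0.81 at 3 days (adjusted p = 0.0417). Lce3e held 10.9, 22.4 and 15.4 TPM at 0 hours and 858, 268 and 462 at 12 hours, a rise of 5.05 ± 0.50 (adjusted p = 0.000896). Lce3b had no count at 0 hours and 172, 73.1 and 97.0 TPM at 12 hours, which makes it at least 57.4-fold higher, and at least 36.4-fold higher at 24 hours and 27.5-fold at 3 days, against a floor of 3 counts in the shallowest library of 0 hours. All 6 Lce3 genes were called at 12 and at 24 hours, all 4 tested at 6 hours and 4 of 6 at 3 days, where Lce3a and Lce3c were not. Lce3a and Lce3b were not tested at 6 hours and entered the later tests through their later counts, so these shares were partly set by the filter. The median fold change of the family was 5.19 at 12 hours beside -0.03 for all genes tested. Since reads move between Lce3 genes, the order within the family is less certain than the sum.

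Relative to Lce1, measured in the same digit, Lce3 made up 1.74% to 2.30% of the Lce1 level at 0 hours, 5.59% to 10.4% at 6 hours, 28.4% to 41.5% at 12 hours, 22.1% to 45.6% at 24 hours, 13.5% to 22.8% at 3 days and 1.79% to 2.18% at 21 days. The range was 3.03% to 55.1% at 3 hours and 2.75% to 14% at 7 days. The 55.1% is the third digit of 3 hours, with the fewest counts. Its Lce1 sum was 254 TPM, beside 7990 and 4569, and Lce3e was its only Lce3 gene with counts. From 3 hours to 7 days no range overlapped with 0 hours (two-sided exact permutation p = 0.1 at each time up to 3 days, the smallest possible with 3 digits against 3, and p = 0.071 at 7 days, where 0.0179 is the smallest possible), while the range at 21 days did (p = 0.9).

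Sprr1a and Sprr1b encode the cross-bridging proteins of the same name, and both are known from wounded and stratifying epithelia. Sprr1a held 68.4, 121 and 101 TPM at 0 hours, 147, 320 and 256 at 3 hours, 818, 689 and 858 at 6 hours, 1531, 949 and 827 at 12 hours, 1466, 1919 and 989 at 24 hours and 149, 470 and 320 at 3 days. From 3 hours to 3 days its digits all lay above those of 0 hours. It rose by 3.07 ± 0.26 at 6 hours (adjusted p = 0.00178), 3.56 ± 0.34 at 12 hours (adjusted p = 0.000817) and 3.95 ± 0.33 at 24 hours (adjusted p = 0.000395). Sprr1b started higher, at 276, 685 and 552 TPM, and reached 1925, 1240 and 1129 at 12 hours and 1566, 1890 and 1197 at 24 hours. Its rise was smaller, 1.56 ± 0.37 at 12 hours (adjusted p = 0.0238) and 1.66 ± 0.35 at 24 hours (adjusted p = 0.0156). The ratio of Sprr1a to Sprr1b went from 0.177 to 0.248 at 0 hours to 0.733 to 0.795 at 12 hours and 0.826 to 1.0 at 24 hours (two-sided exact permutation p = 0.1 each, the smallest possible), and no read-length stretch of the transcripts is shared between them. At 3 days neither was called.

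The Sprr2 genes, which encode small cross-bridging proteins of the envelope, rose as a family from 6 hours to 3 days. Summed over the 11 genes, the digits held 86.1, 49.3 and 41.5 TPM at 0 hours, 107, 142 and 38.0 at 3 hours, 553, 490 and 442 at 6 hours, 1885, 1088 and 1046 at 12 hours, 1113, 1451 and 910 at 24 hours and 1640, 1222 and 1102 at 3 days. The sum rose by 3.11 ± 0.29 at 6 hours (adjusted p = 0.00259), 4.55 ± 0.38 at 12 hours (adjusted p = 0.000556), 4.36 ± 0.33 at 24 hours (adjusted p = 0.000214) and 4.53 ± 0.35 at 3 days (adjusted p = 0.00264). All 10 members tested were called at 12 hours, all 9 at 24 hours, 6 of 8 at 6 hours and 5 of 9 at 3 days. Only Sprr2b, Sprr2h and Sprr2k were tested at 3 hours. The others had few or no counts at 0 hours and entered through later counts, so these shares were partly set by the filter. The family's median fold change at 12 hours was 5.88, or 4.33 with members without counts at 0 hours set to their lower bound.

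Sprr2h, whose transcript shares no read-length stretch with another member, is the clearest single gene. It held 20.3, 21.9 and 15.4 TPM at 0 hours, 192, 169 and 132 at 6 hours, 463, 352 and 321 at 12 hours, 286, 352 and 206 at 24 hours and 123, 70.5 and 120 at 3 days. Its digits were several-fold apart from 0 hours at each of these times and close to each other, and the rise of 4.36 ± 0.24 at 12 hours had an adjusted p of 0.00017. Sprr2i held 0, 2.68 and 3.16 TPM at 0 hours and 359, 164 and 184 at 12 hours (6.72 ± 0.60, adjusted p = 0.000684). Sprr2d held 6.47, 1.80 and 1.99 TPM and then 269, 83.9 and 166 (5.87 ± 0.61, adjusted p = 0.00113). Sprr2f was absent from the counts of 0 hours and at least 19.6-fold higher at 12 hours, with 65.7, 12.5 and 30.0 TPM. Sprr2j-ps, annotated as a pseudogene by its name, went from 0, 1.78 and 0.854 TPM to 86.3, 49.6 and 46.9 (5.89 ± 0.61, adjusted p = 0.00113).

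Within Sprr2 the members did not share a time of highest level. By the median over NR digits, 6 of the 11 genes were highest at 12 hours (Sprr2d, Sprr2e, Sprr2f, Sprr2h, Sprr2i and Sprr2j-ps), Sprr2k at 24 hours, Sprr2b at 14 days, and Sprr2a1, Sprr2a2 and Sprr2a3 at 3 days. For Sprr2b the medians of 14 days (283) and 12 hours (271) were close and the ranges overlapped. Its highest digit of 14 days (399) is the library enriched in short transcripts, so its time of highest level is uncertain. The summed Sprr2a1 to Sprr2a3 held 7.07, 3.95 and 3.65 TPM at 0 hours, then 145, 65.2 and 39.3 at 12 hours and 264, 196 and 199 at 24 hours. On day 3 it held 1189, 895 and 712 TPM, and on day 7 its 5 values were 536, 49.0, 351, 172 and 926 TPM. The digits of 3 days lay above those of every earlier time. As 1 summed row the 3 genes rose by 4.54 ± 0.50 at 12 hours (adjusted p = 0.00152), 5.85 ± 0.26 at 24 hours (adjusted p = 3.01e-05), 7.70 ± 0.37 at 3 days (adjusted p = 0.00022) and 6.59 ± 0.84 at 7 days (adjusted p = 0.0281). The other 8 genes as 1 row rose by 4.55 ± 0.38 at 12 hours (adjusted p = 0.000562) and 2.81 ± 0.30 at 3 days (adjusted p = 0.0057), and were not called at 7 days (1.67 ± 0.76, adjusted p = 1).

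The share of Sprr2a1 to Sprr2a3 in the Sprr2 level of a digit was 8.02% to 8.79% at 0 hours, 3.76% to 7.69% at 12 hours, 13.5% to 23.7% at 24 hours, 64.7% to 73.2% at 3 days and 41.1% to 90.4% at 7 days. The digits of 3 and 7 days all lay above all those of 0, 12 and 24 hours. The difference from 0 hours had a two-sided exact permutation p of 0.0179 at 7 days, the smallest possible with 5 digits against 3, and of 0.1 at 3 days, as had 3 days against 12 hours (the smallest possible with 3 against 3). By 21 days the share was 4.2% to 9.76%. Nearly all of the sum was assigned to Sprr2a2, with 1147, 873 and 694 TPM at 3 days, against 27.5, 14.2 and 9.22 for Sprr2a1 and 14.7, 7.70 and 9.55 for Sprr2a3. Since nearly every read of these genes matches more than 1 of them, that split between the 3 copies is uncertain.

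**Figure D3:**
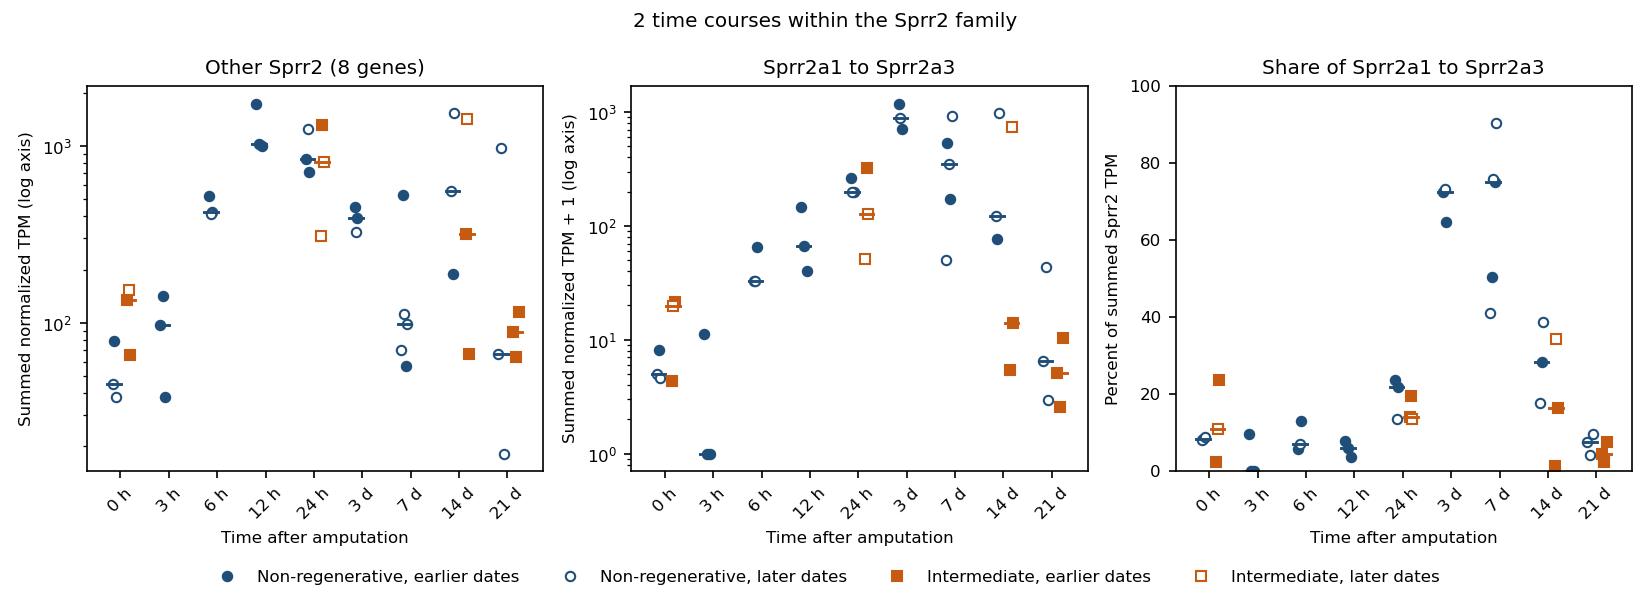
Summed normalized TPM (log axis) of the 8 other Sprr2 genes (left) and of Sprr2a1 to Sprr2a3 plus 1 (middle), and the percentage of Sprr2 TPM assigned to Sprr2a1 to Sprr2a3 (right), in every digit against time, with symbols as for the family sums. The other genes are highest at 12 hours in NR digits, and Sprr2a1 to Sprr2a3 at 3 days, where they make up 64.7% to 73.2%.

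Promoters are given because the Sprr1, Sprr2 and Lce3 genes moved together while Sprr2a1 to Sprr2a3 peaked later. Windows from 250 bases before to 50 bases after the RefSeq start (GRCm38.p6) were at hand for 42 of the 44 members, and Lce1f and Sprr2j-ps had none. They were searched on both strands for TGANTCA, the element that AP-1 factors are known to bind, for TTCNNNGAA, the element of STAT factors, and for TATAAA. Each pattern was searched on its own, so matches of different patterns could overlap. TGANTCA was in 7 of 10 Sprr2 windows, all but those of Sprr2a1, Sprr2a2 and Sprr2a3, at positions -193 to -198 from the start, with another match nearer the start in Sprr2k. It was also in both Sprr1 windows, in 0 of 13 Lce1 and 0 of 6 Lce3 windows, in 15 of 42 member windows (35.7%) and in 7.81% of all 32851 promoters. TATAAA was in the same 7 Sprr2 windows, at position -29, in both Sprr1 windows, in 20 of 42 member windows (47.6%) and in 13.6% of all promoters, and TTCNNNGAA in 3 of 42 member windows and in 8.3% of all. A match is a description of the letters and no evidence of binding, and the windows depend on where the annotation puts the start. The last 31 bases of the Sprr2a1 and Sprr2a2 windows match Sprr2b with 4 mismatches in a stretch that ends at -36 there, just before its TATAAA, so their windows stop short of the place that holds TATAAA in Sprr2b, and the bases beyond were not searched. The 4 windows below are shown as examples of these patterns, 5′ to 3′ on the strand of the gene with matches of the patterns in capitals, and those of Sprr2a2 and Lce3d hold none. They lie at chr3:92385435-92385734 (Sprr2h, plus strand), chr3:92250397-92250696 (Sprr2a2, plus), chr3:92485832-92486131 (Sprr1a, minus) and chr3:92957140-92957439 (Lce3d, plus).
Sprr2h: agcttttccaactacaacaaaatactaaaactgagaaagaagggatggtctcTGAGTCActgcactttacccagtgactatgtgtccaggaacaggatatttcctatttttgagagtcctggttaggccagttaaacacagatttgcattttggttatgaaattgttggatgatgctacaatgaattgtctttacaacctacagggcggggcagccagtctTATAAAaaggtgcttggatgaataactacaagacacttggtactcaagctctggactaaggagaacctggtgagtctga
Sprr2a2: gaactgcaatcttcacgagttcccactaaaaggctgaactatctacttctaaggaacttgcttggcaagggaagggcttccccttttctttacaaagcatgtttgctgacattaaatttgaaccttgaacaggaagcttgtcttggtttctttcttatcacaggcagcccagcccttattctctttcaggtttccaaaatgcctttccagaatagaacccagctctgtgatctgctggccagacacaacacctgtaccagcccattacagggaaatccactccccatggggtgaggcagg
Sprr1a: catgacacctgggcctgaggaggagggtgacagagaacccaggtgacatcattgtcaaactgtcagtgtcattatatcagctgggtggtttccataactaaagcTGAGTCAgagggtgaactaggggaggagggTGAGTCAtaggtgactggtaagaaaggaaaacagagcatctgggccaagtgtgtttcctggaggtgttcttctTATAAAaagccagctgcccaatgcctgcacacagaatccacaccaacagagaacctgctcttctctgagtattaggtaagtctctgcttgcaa
Lce3d: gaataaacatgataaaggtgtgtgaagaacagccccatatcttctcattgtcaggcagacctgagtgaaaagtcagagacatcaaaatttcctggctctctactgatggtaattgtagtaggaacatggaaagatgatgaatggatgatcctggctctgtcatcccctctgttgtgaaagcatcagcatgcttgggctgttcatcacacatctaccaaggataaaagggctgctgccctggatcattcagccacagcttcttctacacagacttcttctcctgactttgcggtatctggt

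The Lce1 genes, the abundant late envelope genes of intact epidermis, overlapped as a sum with 0 hours at 12 and 24 hours and 3 days. Their sum was 2465, 4319 and 4654 TPM at 0 hours, 6113, 9258 and 7609 at 6 hours, 7255, 4773 and 3834 at 12 hours, 3262, 7167 and 2551 at 24 hours and 4201, 3178 and 6368 at 3 days. The digits of 6 hours lay above those of 0 hours and the later ones overlapped with them. All digits of 12 hours lay above the 1 digit of 0 hours that shares their date (2465 TPM). Their overlap rests on the digits of 0 hours of another date. The median difference over Lce1 genes at 14 days was 1.78 without a call, where the second digit is the library enriched in short transcripts. At 6 hours 1 of 14 Lce1 genes was called (Lce1j, 1.25 ± 0.29, adjusted p = 0.0431), and that call was lost on leaving out any of the 6 digits. Single Lce1 genes differed by 0.83 to 1.38 at 6 hours (median 1.10), and 12 of 14 did not overlap with 0 hours (17.9% of all genes tested were non-overlapping and higher). At an unadjusted p under 0.05 were 13 of 14, and DESeq2 called 9 (shares of all genes not given). The sum differed by 1.06 ± 0.32 (adjusted p = 0.0858). At 12 hours 0 of 14 were called (median 0.59; 2 at an unadjusted p under 0.05, 12 with the exact date as a block, 0 called by DESeq2), and at 24 hours 0 of 14 (median 0.23; 0 and 0). Lce6a, a single gene between Ivl and the Lce1 block, held 42.1, 55.8 and 41.1 TPM at 0 hours and 117, 106 and 111 at 6 hours, a rise of 1.33 ± 0.20 (adjusted p = 0.0129).

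**Figure D4:**
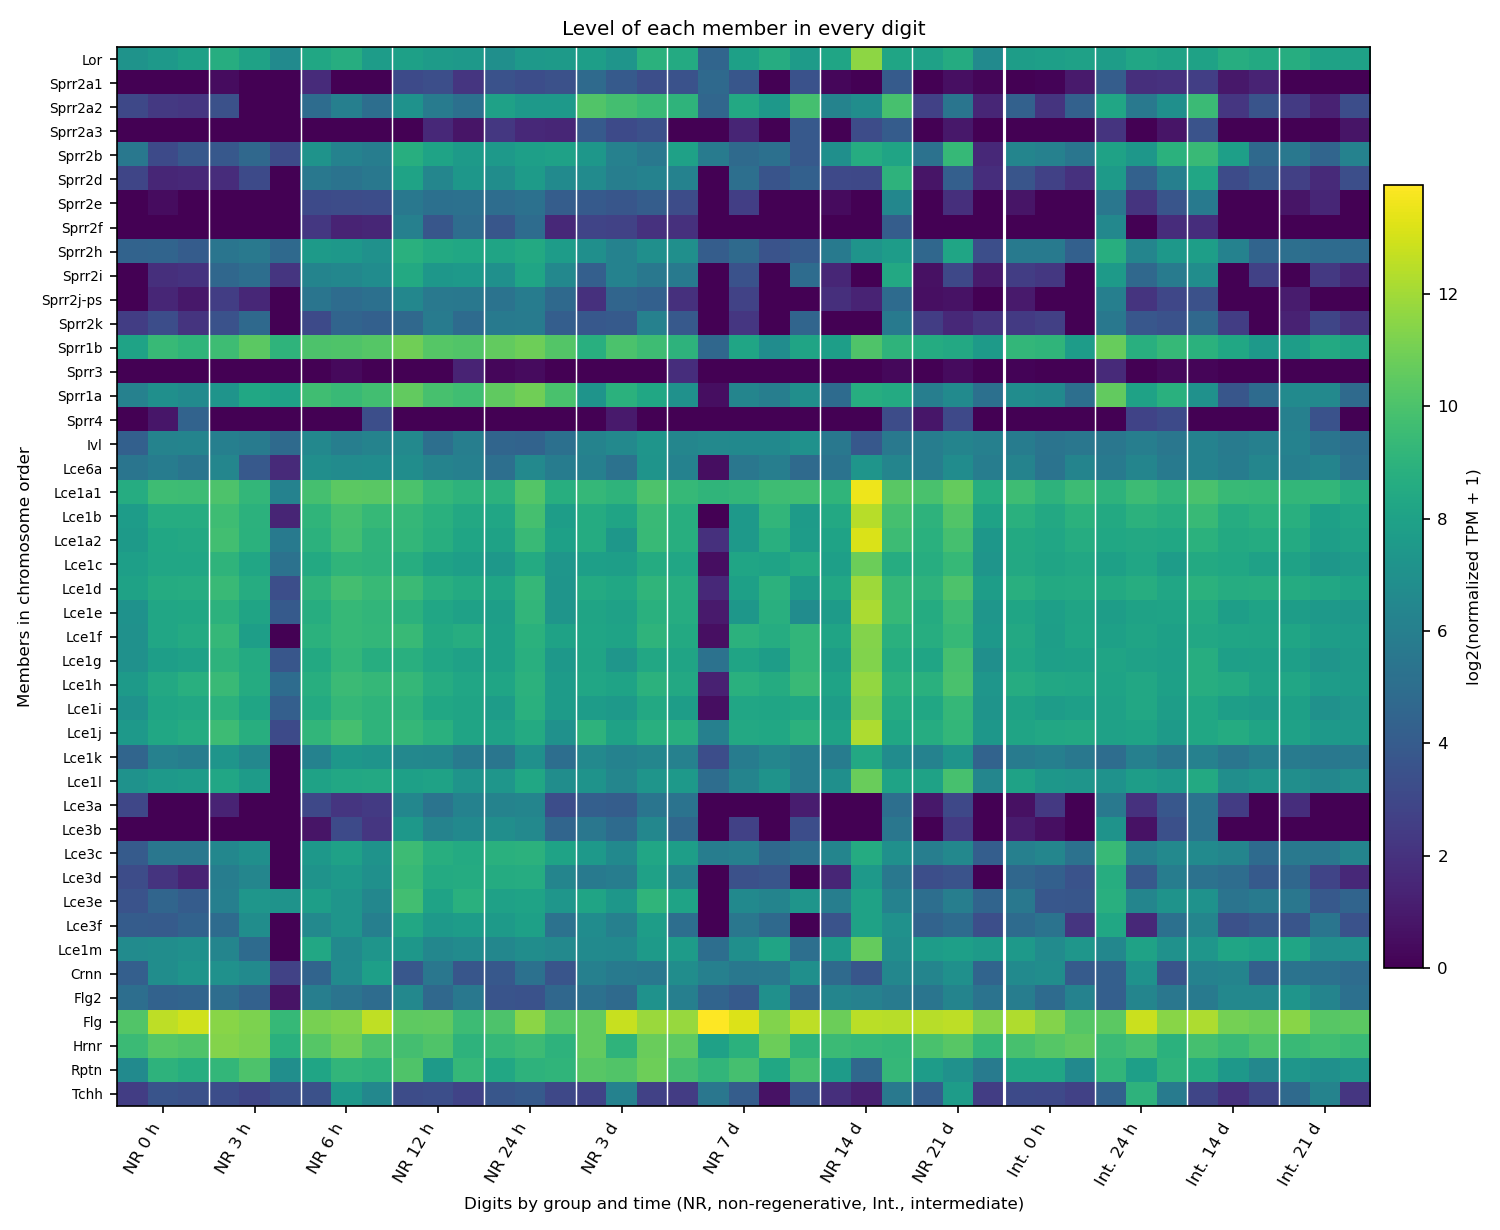
Log2 of normalized TPM plus 1 (colour) of the 44 members in chromosome order (rows) in each of the 41 digits (columns), with white lines between groups. The Lce3 rows and most Sprr2 rows are dark at 0 hours and brighter from 6 hours to 3 days, the Lce1 rows stay bright apart from the third digit of 3 hours and the second of 7 days, and the second digit of 14 days has the highest Lce1.

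Lor, Ivl and the fused S100 genes were not called in any pairwise comparison of the full groups with edgeR. Lor, the main protein of the mature envelope, held 141, 180 and 245 TPM at 0 hours, 245, 201 and 185 at 12 hours and 120, 179 and 195 at 24 hours, with overlapping ranges. Its differences of 0.21 ± 0.24 at 12 hours (adjusted p = 0.568) and -0.15 ± 0.26 at 24 hours (adjusted p = 0.729) were within the spread. Ivl, the early scaffold of the envelope, held 18.2, 75.4 and 77.1 TPM at 0 hours and 22.7, 20.9 and 34.3 at 24 hours. The first digit of 0 hours was as low as those of 24 hours, and the difference of -1.10 ± 0.49 was not called (adjusted p = 0.155). Hrnr held 724, 1252 and 1089 TPM at 0 hours and 620, 746 and 507 at 24 hours (-0.70 ± 0.29, adjusted p = 0.132). Without the first digit of 0 hours, Ivl fell by 1.53 at 24 hours (adjusted p = 0.00348).

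Crnn, which encodes cornulin, held 17.4, 112 and 145 TPM at 0 hours, 12.9, 45.1 and 12.4 at 12 hours and 13.4, 35.5 and 11.9 at 24 hours. The first digit of 0 hours, the only one of the earlier period, lay inside the range of the later times. The differences of -1.91 ± 0.75 at 12 hours (adjusted p = 0.108) and -2.13 ± 0.70 at 24 hours (adjusted p = 0.0711) were not called. Without that digit Crnn fell by 2.38 at 12 hours (adjusted p = 0.0116) and by 2.61 at 24 hours (adjusted p = 0.00497). The same held for Flg, which fell by 1.78 at 12 hours (adjusted p = 0.00311) and by 1.81 at 24 hours (adjusted p = 0.0109) without it, and with it differed by -1.35 ± 0.52 (adjusted p = 0.104) and -1.39 ± 0.56 (adjusted p = 0.122). All 3 digits at 12 hours share the date of the digit left out. With the exact date as a block the differences at 12 hours turned to 0.51 for Crnn (adjusted p = 0.657) and 0.30 for Flg (adjusted p = 0.589), so the lower values at 12 hours rest on the digits of 0 hours of another date.

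Flg moved with the date period more than any other abundant member. In CPM, its counts scaled to a common library total, it held 2634, 8667 and 10040 at 0 hours and 3108, 3387 and 1891 at 12 hours, where the lowest value of 0 hours is again the digit of the earlier period. In TPM the later digits lay above the earlier ones in 9 of the 9 groups that hold both periods, and in CPM in 6 of 9. The TPM given for each CPM of Flg was 0.297 to 0.608 in the earlier digits and 0.609 to 2.88 in the later ones, so its TPM is not comparable between the periods, and counts were used for its tests. A period term in a fit over the 41 digits was significant for 3 of 42 members (8.23% of all genes): Flg (0.76 ± 0.22 higher in the later period, adjusted p = 0.0285), Flg2 (lower by 1.13 on the log2 scale, adjusted p = 0.0373) and Tchh (2.0, adjusted p = 0.0497). No Lce or Sprr gene was among the 3, but some of their terms were large and imprecise (Sprr2a3 2.05 ± 1.33, Lce3a -1.04 ± 0.91). The lack of a call is therefore no result about these families. What the dates mark is not stated in the labels.

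Rptn held 101, 523 and 411 TPM at 0 hours, 1083, 196 and 624 at 12 hours and 1259, 1147 and 1833 at 3 days, its highest level. The digits of 3 days lay above those of 0 hours, but the difference of 2.02 ± 0.56 was not called (adjusted p = 0.192). Tchh, a gene of the hair root sheath and nail, held 4.89, 11.4 and 10.1 TPM at 0 hours and 10.2, 186 and 89.6 at 6 hours (3.48 ± 0.90, adjusted p = 0.0577), and without the first digit of 6 hours it rose by 4.02 (adjusted p = 0.00992). Flg2, a relative of profilaggrin, held 31.4, 19.5 and 21.7 TPM at 0 hours, 91.0, 25.6 and 46.6 at 12 hours and 11.3, 10.3 and 24.6 at 24 hours. It was called higher at 12 hours without the second digit of that time (1.6, adjusted p = 0.0321) and lower at 24 hours without the third (-1.45, adjusted p = 0.0437). Each digit left out for Flg2, and the first of 6 hours left out for Tchh, lay inside the range of 0 hours. With all digits neither gene was called. Sprr3 had 0 counts in 30 of 41 digits and never 10 or more. Sprr4 had counts in 11 digits and 10 or more in 7, with up to 66.2 TPM in an intermediate digit of 21 days and 20.6 in an NR digit of 0 hours.

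**Figure D5:**
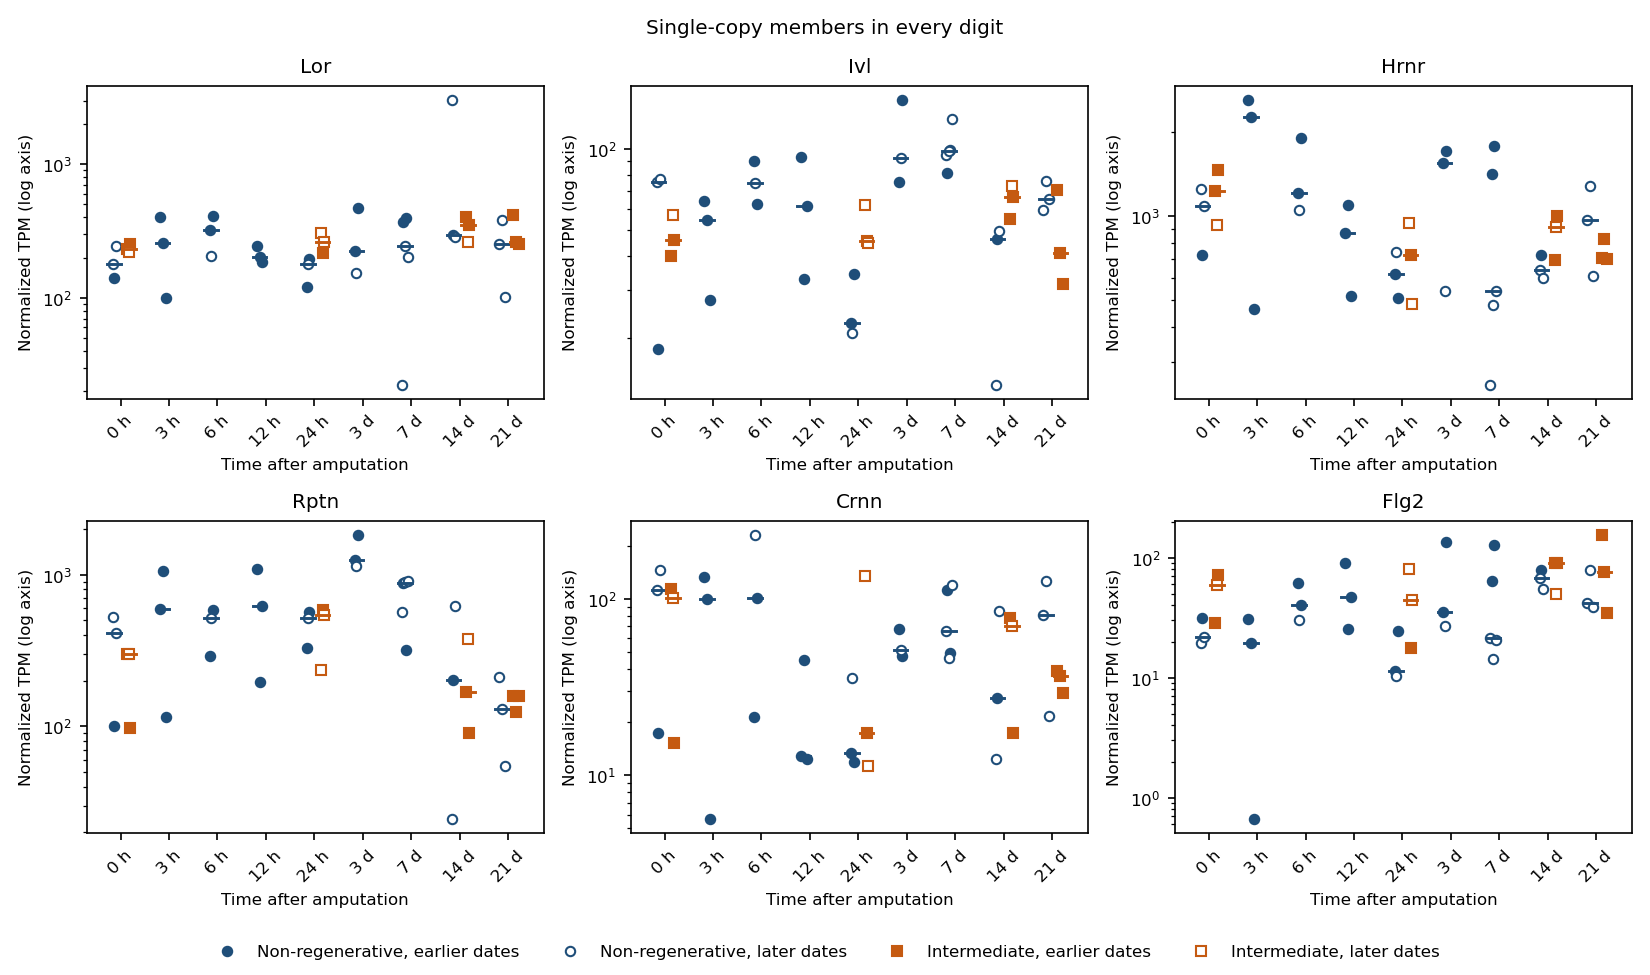
Normalized TPM (log axis) of Lor, Ivl, Hrnr, Rptn, Crnn and Flg2 in every digit against time, with symbols as for the family sums. In NR digits Crnn is between 11.9 and 45.1 at 12 and 24 hours, beside 17.4, 112 and 145 at 0 hours, and Rptn has its highest median at 3 days.

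From 7 days on the digits of a group spread widely, and of the family sums only that of Sprr2a1 to Sprr2a3 at 7 days was called. At 7 days Sprr2a2 held 526, 23.0, 338, 172 and 902 TPM, all above the 3.65 to 7.07 of 0 hours, and the difference of 6.4 ± 1.15 was not called (adjusted p = 0.142). Without the second digit of 7 days, the library depleted of short transcripts, Sprr2a2 rose by 6.71 (adjusted p = 0.00361) and Lce3e by 3.21 (adjusted p = 0.0273). At 14 days the summed Sprr2 level was 265, 677 and 2509 TPM. The third digit of 14 days, at 80% amputation, held 943 TPM of Sprr2a2, 514 of Sprr2d and 345 of Sprr2i. It also held 12767 TPM of the wound keratins Krt6a, Krt6b, Krt16 and Krt17. The second digit, with less Sprr2, held 16309 TPM of these keratins. Its TPM of all genes summed to 3362791, beside 939809 in the third, so the keratin levels are not comparable between these digits. Without the second digit of 14 days, the library enriched in short transcripts, Sprr2a2 (6.69, adjusted p = 0.0306) and Lce3e (1.99, adjusted p = 0.0499) were called higher. At 21 days the second NR digit held 644 TPM of Sprr2b and 296 of Sprr2h, beside 36.6 and 2.02 of Sprr2b in the others, and also had the highest nail and hair keratins of the 41 digits (10147 TPM beside 914 and 149). The Lce3 and Sprr1 sums of the 3 digits of 21 days overlapped with those of 0 hours.

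The intermediate digits ask whether the envelope genes respond alike after a smaller amputation. At 24 hours the same families stood higher than at 0 hours, without a call, and the digits of 24 hours spread widely. Summed Sprr2 was 171, 139 and 85.8 TPM at 0 hours and 1638, 359 and 938 at 24 hours (2.90 ± 0.51, adjusted p = 0.104), and summed Lce3 was 168, 158 and 64.2 and then 2032, 163 and 350 (2.73 ± 0.87, adjusted p = 0.216). All 3 digits lay above 0 hours for Sprr2 but only 2 did for Lce3 in TPM. Sprr1a held 107, 95.5 and 33.2 TPM and then 1560, 265 and 455 (3.30 ± 0.71, adjusted p = 0.126), and Sprr2b 79.4, 69.5 and 44.0 and then 257, 165 and 486 (2.25 ± 0.39, adjusted p = 0.105). Of 36 members tested, 0 were called with edgeR (0.0152% of all genes), and 10 did not overlap and were higher (11.7% of all genes). At an unadjusted p under 0.05 were 12, and 12 were called by DESeq2 (shares of all genes not given). Without the first digit of 24 hours Tchh was called higher (5.42, adjusted p = 0.0495), and without the second Sprr2b was (2.54, adjusted p = 0.0425). The digit left out was in each case the lowest of 24 hours for that gene.

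At 14 days 0 of 36 members were called against 0 hours in intermediate digits (1.68%; 7 at an unadjusted p under 0.05, 0 by DESeq2), and at 21 days 0 of 34 (1.39%; 8 and 0). The first intermediate digit of 14 days, at 42%, held 727 TPM of Sprr2a2 and 302 of Sprr2d, beside 3.58 and 11.5 of Sprr2a2 in the others, with 9161 TPM of wound keratins and 9244 of nail and hair keratins. At 21 days 6 of 14 Lce1 genes were lower in all 3 digits than in any at 0 hours (10.6% of all genes were non-overlapping and lower), with a median difference of -0.39. Without the third intermediate digit of 0 hours, Crnn, Rptn and Sprr1b were called lower at 21 days, and without the third digit of 21 days Tchh was called higher. Each digit left out was the lowest of its group for these genes.

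No member was called between intermediate and NR digits of the same time. With edgeR 0 of 34 were called at 0 hours (0%; 4 at an unadjusted p under 0.05, 0 by DESeq2), 0 of 41 at 24 hours (0%; 4 and 2), 0 of 38 at 14 days (0%; 2 and 0) and 0 of 34 at 21 days (0.648%; 3 and 0). The comparison at 24 hours turned on the first intermediate digit, at 41% and of the earlier period, whose Lce3 sum of 2032 TPM exceeded all 3 NR digits (1488, 1584 and 574) while the others (163 and 350) lay below them. It also had 47379 TPM of wound keratins, beside 4823 and 10593 in the other intermediate digits and 36293 to 45489 in NR digits. Without it 8 of 42 members were called (4.78% of all genes in that fit). Lce3c (-2.41 ± 0.31, adjusted p = 0.00469), Sprr1a (-2.05 ± 0.33, adjusted p = 0.0112), Sprr1b (-1.55 ± 0.25, adjusted p = 0.0114), Lce3b, Sprr2a1 and Sprr2j-ps were lower in the remaining intermediate digits, and Flg2 and Tchh were higher. These digits are both of the later period, and 1 of the 3 NR digits is, and with the exact date as a block 0 of 41 members were called over all 6 digits. Without the third NR digit of 21 days, Crnn, Lce1c, Lce1e, Lce1j and Lce1l were called lower in intermediate digits at 21 days (0.853% of all genes in that fit), where the date period and the group cannot be told apart. A test of whether the change from 0 hours differed between the groups, over 24 digits, called 0 of 43 members (0% of all genes; 2 members at an unadjusted p under 0.05, 0 members by DESeq2).

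Other genes of the cornification programme were read from lists, whose counts at 12 hours stand beside the 6.76% of all genes called higher. Of 16 tested further genes of the same cluster, 7 rose at 12 hours, led by the antimicrobial calprotectin genes S100a8 (8.84 ± 0.63, adjusted p = 0.00033) and S100a9 (5.23 ± 0.46, adjusted p = 0.000651), which neutrophils also express. At 24 hours 7 rose and S100a3 fell (by 2.08, adjusted p = 0.0298). Of 9 genes of the envelope scaffold and its cross-linking, 1 rose at 12 hours and at 24 hours, the cornifelin gene Cnfn (1.22 ± 0.21 and 1.26 ± 0.27), while the transglutaminase gene Tgm1 differed by 0.92 ± 0.25 at 12 hours, less than 2-fold. Of 16 proteases and inhibitors 3 rose at 12 hours, led by the kallikrein Klk6 (5.34 ± 0.75, adjusted p = 0.00387). Of 12 desmosomal genes 2 rose (Dsg3, 3.11 ± 0.29, and Dsc2, 2.54 ± 0.17), and of 14 barrier lipid enzymes 3 rose, led by the ceramide enzyme Degs2 (3.70 ± 0.66). Of 18 transcription factors 2 rose (Nfe2l2, 1.24 ± 0.14, and Cebpb, 1.03 ± 0.18) and 4 fell, among them Gata3 (by 1.48) and Maf (by 1.34). The median differences at 12 hours were 1.14 over the cluster's other genes, -0.01 over the scaffold, 0.57 over the proteases, 0.16 over the desmosome, 0.54 over the lipid enzymes and 0.14 over the transcription factors, beside -0.03 over all genes tested.

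Markers of the tissue's make-up moved with these families. All 4 wound keratins were called higher at 6, 12 and 24 hours and 3 of 4 at 3 days, and their sum was 1441 to 1739 TPM at 0 hours, 16295 to 32778 at 12 hours, 36293 to 45489 at 24 hours and 12676 to 30360 at 3 days. The suprabasal keratins summed to 29718 to 67639 TPM at 0 hours and 19472 to 31307 at 12 hours, where Krt1 fell (by 1.66, adjusted p = 0.0296). The 29718 TPM, inside the range of 12 hours, is the 1 digit of 0 hours that shares the date of 12 hours. The lower sum at 12 hours thus rests on the digits of 0 hours of another date. No value of Krt1 with the exact date as a block is given. All 3 neutrophil markers tested, of 6 in the list, rose at 12 hours, when the list summed to 48.2 to 118 TPM beside 5.31 to 16.9 at 0 hours. The fibroblast list summed to 875 to 1542 TPM at 12 hours beside 1570 to 2842. The first digit of 0 hours held 5246 TPM of nail and hair keratins beside 179 and 456 in the others, and also the highest Sprr2b of that time (47.5 TPM beside 7.92 and 13.1). The part of these differences in the changes of the envelope genes was not tested.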

How the data were processed

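Wound-bed RNA of 41 digits was sequenced as poly(A) libraries (LM-Seq, single-end reads of 65 bases). The authors aligned reads with Bowtie to mm10 transcripts, allowing 2 mismatches, and deposited expected counts per gene from RSEM 1.2.3. The authors also deposited normalized TPM, a signal that they rescaled between libraries by median-by-ratio. Of 90397 transcript IDs listed, 89768 are in GENCODE vM21, and 26 gene names turned into dates were restored from them. RSEM divides reads that match several genes by estimation, so family sums are firmer than single members.

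Expected counts were rounded and tested in edgeR 4.0.16 (R 4.3.3) by the quasi-likelihood test on the libraries of the pair of groups compared, with filterByExpr, TMM and Benjamini-Hochberg adjustment over all genes tested. A call needed an adjusted p under 0.05 and group means of the normalized count, each with 1 added, that were over 2-fold apart. The study's methods used EBSeq, for which edgeR stands in. F-tests covered change over time and group by time. The tests were checked on simulated counts. Alternatives were RLE size factors, DESeq2 1.42.0, no filter, no fold threshold, limma 3.58.1 on log2(normalized TPM + 1), 1 fit of all digits, the date period and leaving out each digit. Family sums, the period term, a block by exact date and fits without the libraries that stand apart were added after seeing the data. A floor of 3 counts covers counting error only. Every member could be named, and of each other list the 2 genes with the largest positive and the 2 with the largest negative change. The members and lists were chosen with earlier results of these data known.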

Additional observations from a re-analysis of the deposited data

Results flagged for a closer look

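At 7 days, the only time with more than 3 digits, 9 of 43 members and the Lce3 sum had a digit far from the others. Chance gives about 1 in 20 for a single gene only where values are normally distributed. TPM with many values at 0 are not, so the rate here is unknown. Of the 9, 7 are high in the same digit and so are not independent, and Sprr2f and Sprr3 stand out on a few counts beside 0 in the others. The first digit was highest for Lce3a (38.48 TPM, others 0 to 1.191), Lce3c (223.8, others 26.22 to 65.78), Lce3d (72.41, others 0 to 11.87), Sprr2b (255.6, others 14.14 to 53.84), Sprr2f (2.772, others 0), Sprr2h (122.9, others 10.89 to 27.13) and Sprr3 (2.516, others 0). The same digit had the highest summed Lce3, 656.7 TPM beside 58.1 to 223.6. The fifth digit was highest for Sprr2a3 (14.14, others 0 to 1.76), and the second, depleted of short transcripts, was lowest for Lce1c (0.4305, others 267.1 to 367.6).

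The series also holds libraries of bone marrow-derived macrophages from female C57Bl/6 mice, which entered no test. By the study's methods these cells were unstimulated (M0) or treated with IFN-γ and LPS (M1) or with IL-4 (M2). At very low levels, 3 members stood above M0 cells there. Lce1g had a median of 2.889 TPM in M1 cells, from 11, 17 and 23 counts, beside 0 to 0.187 TPM in M0. Tchh had a median of 0.8133 TPM in M1 cells, and Sprr2a2 of 0.6206 TPM in M2 cells, from 5, 6 and 4 counts beside 0 in each M0 library.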

How the results depend on the processing

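No paired analysis was possible because the labels give no replicate numbers, and digits were numbered in accession order. Where groups share an exact date, it was added as a block after seeing the data, and left 17 calls at 12 hours and 0 between groups at 0 hours, 24 hours and 14 days. At 12 hours it reversed Crnn (0.51) and Flg (0.30). No other named value reversed, and of 894 gene-level values 762 kept their side of the threshold, 111 lost it and 19 gained it. For NR digits against 0 hours, a fit of all 41 digits called 0 members at 6 hours and 9 at 24 hours, and with the date period 0 and 10, and 11 at 12 hours. Both of these fits called 2 members on day 3, 2 on day 7 and 6 on day 14. DESeq2 called 2 members at 3 hours and 25 at 6 hours, 18 on day 3, 2 on day 7, 4 on day 14, 12 in intermediate digits at 24 hours and 2 between groups at 24 hours. Over time it called 26 members, beside 4406 of 14434 genes, where edgeR called 14 beside 1100. Counts given without a share of all genes, here and above, describe the setting and not the members. Without the filter on low counts, 1 was called at 3 hours and 2 in intermediate digits at 24 hours. The cause of these differences was not tested. Leaving out 1 digit at a time gave 7 to 13 calls at 6 hours, 16 to 20 at 12 and 14 to 22 at 24, then 6 to 10 on day 3 and 0 to 2 on day 7 and on day 14. It gave 0 to 1 in intermediate digits at 24 hours, 0 to 3 at 21 days, 0 to 8 between groups at 24 hours, 0 to 5 at 21 days and 13 to 20 over time. Called under every alternative were 11 of 18 members at 12 hours, 8 of 17 at 24 hours, 2 of 9 at 3 days and 0 of 13 at 6 hours. Depth limits the members with few counts, since Sprr3 reached 10 counts in 0 of 41 digits and Sprr2f in 8.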

Other observations

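The highest digit of Sprr2b was also the digit with the most nail and hair keratin in 10 of 13 groups. The other members matched in 2 to 8 groups, Lce3d and Lce3e in 8 and Sprr2d and Sprr2h in 7. A group with 0 in every digit could also be scored as a match, as for Sprr2a1, Sprr2a3 and Sprr2f in NR digits of 0 hours. The numbers for members with few counts can therefore be too high. In intermediate digits of 14 days, for example, Sprr2b held 691, 235 and 25.7 TPM, Sprr2h 228, 72.1 and 21.6, and the nail and hair keratins 9244, 2310 and 607. These are descriptions over few digits per group, in which both values come from the same library and the dates differ within many groups. No test was made.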
